A study of Chlamydomonas reinhardtii with 6 samples.

Results

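A group of 5 genes, annotated or known as carriers of sugar phosphates, was followed in RNA-seq libraries of the green alga Chlamydomonas reinhardtii, with and without 1 h of UV-B. They were chosen by gene identifier: the triose phosphate transporter gene Cre08.g379350, TPT3 (Cre01.g045550), TPT2 (Cre06.g263850), and Cre16.g688850 and Cre10.g435650 for hexose phosphate transporters. All 5 identifiers were present among the 13452 genes of the deposited table, and all 5 passed the filter on low values. In the UV-B group, 3 cultures of strain CC-125 (137c mt+), a wild type, received UV-B through a filter whose edge lies at 311 nm. In the no UV-B group, 3 cultures of that strain were shielded from it by a filter whose edge lies at 360 nm. All 6 were stationary cultures in TAP, a medium that contains acetate, grown for 4 days as 15 mL dishes from a diluted starter culture. They stood for 1 h at 3.6 µmol m-2 s-1 of white light together with narrowband UV-B tubes (0.07 mW/cm2), whose UV-B the filters passed or blocked. The question is how transcript levels respond to a short acclimation-level UV-B exposure, and light between 311 nm and 360 nm is part of the difference. The series describes the cultures as independent, so the replicate spread includes differences between dishes of 1 strain.

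In plants and algae, triose phosphate translocators sit in the inner envelope of the plastid and exchange triose phosphates made by photosynthesis for inorganic phosphate. In this way they link carbon fixation and starch metabolism inside the plastid to glycolysis and sucrose or energy metabolism outside it. Carriers related to the UhpT and UhpC proteins belong to the major facilitator superfamily and are known from the bacterium Escherichia coli, where UhpT takes up hexose phosphates in exchange for phosphate and UhpC senses them.

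The annotation places only part of the group in the plastid. The authors' deposited table describes Cre08.g379350 as a triose phosphate transporter and Cre06.g263850 as a triose phosphate/phosphate translocator, and puts both among the metabolite transporters of the envelope membrane. It describes Cre16.g688850 and Cre10.g435650 as hexose/glycerol-3-phosphate transporters with a UhpC-type domain, and it gives neither of them a place in the envelope. TPT3 is outside that table, which lists 2596 genes that the authors called as changed more than 2-fold, and the names TPT2 and TPT3 do not come from the files. No source used here names the genome build behind the counts, so no coordinates are printed.

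UV-B lowered 4 of the 5 transporter genes and raised 1, and no gene had overlapping groups, with UV-B lower in 4 genes (31.6% of all genes tested) and higher in 1 (31.7%). Cre08.g379350 fell to 19.4% of its no UV-B mean, and the hexose phosphate transporter genes fell to 21.3% (Cre16.g688850) and 30.1% (Cre10.g435650). TPT3 fell less, to 56.3%. TPT2 was the gene that rose, to 245.5% of its no UV-B mean. Passing the threshold was common in these data: 59.0% of the 13415 genes tested did so in limma at an adjusted p under 0.05, with 29.6% lowered and 29.5% raised, and the groups did not overlap in 63.2%. A change of at least 2-fold past the threshold was seen in 3 lowered transporter genes, against 6.48% of all genes, and in 1 raised transporter gene, against 6.57%. The median log2 fold change of the 5 genes was -1.66, and that of all genes tested was 0.00037. The 5 genes were chosen with earlier results of these data known, so their counts and median describe them and test nothing.

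**Figure D1:**
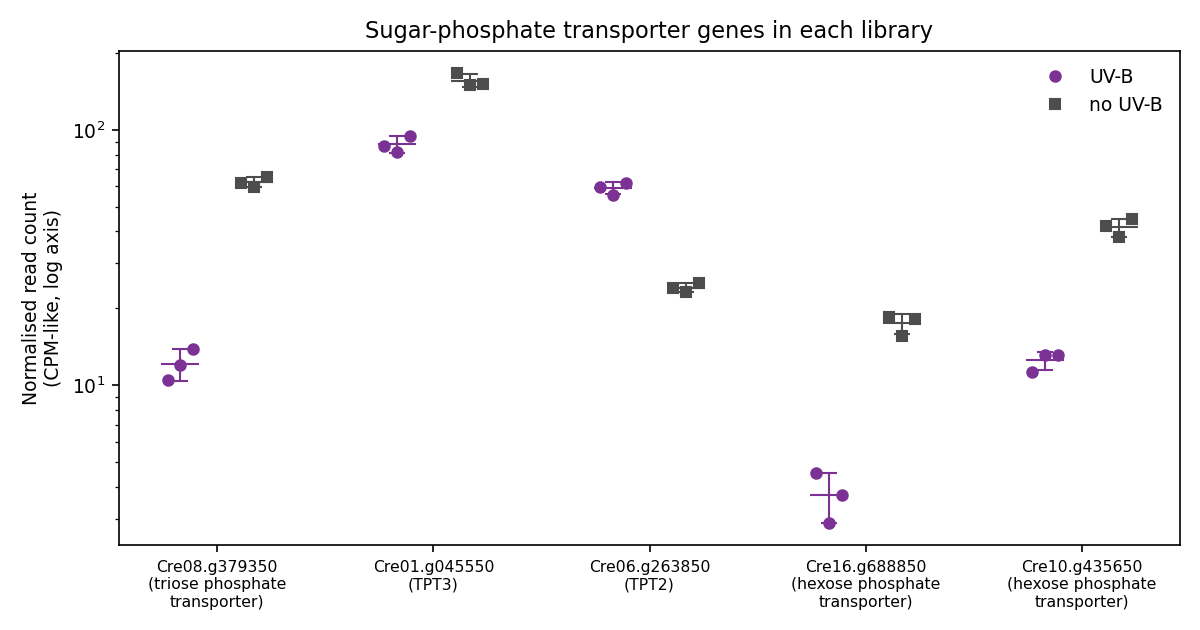
Normalised read counts (CPM-like, log axis) of the 5 genes in each library, with UV-B libraries as circles and no UV-B libraries as squares. Horizontal bars are group means and whiskers are SD (n = 3); the UV-B values lie below the no UV-B values in every gene but TPT2.

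Values are the authors' normalised read counts, which are CPM-like, and each is backed by a known number of reads. Total reads ran from 7868534 to 11972794 per library, and the 5 genes had between 28 and 1826 reads in a library. Levels depend on transcript length as well as abundance, and transcript lengths were not used here, so levels are compared between groups and not between genes. In bulk RNA, less RNA of a gene per cell and fewer cells expressing it cannot be told apart. No source used here says how reads shared by similar genes were assigned or whether counting used strand, and any exchange of reads among related transporter genes was not tested.

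The triose phosphate transporter gene Cre08.g379350 had normalised read counts of 10.5, 12.0 and 13.9 in the UV-B libraries, against 61.9, 59.9 and 65.5 in the no UV-B libraries. Every UV-B library was far below every no UV-B library, and the lowest no UV-B value was 4.31 times the highest UV-B value. The means were 12.1 ± 1.73 with UV-B and 62.4 ± 2.86 without it (SD, n = 3 each), a 5.15-fold lower mean. Fold changes from limma are of log2(value + 1), a scale on which the change of low genes comes out too small. Here the log2 fold change was -2.28 ± 0.10 (SE, limma), with an adjusted p of 2.08e-18 and a 95% interval from -2.48 to -2.08. Of all genes tested, 0.813% had a lower log2 fold change. The spread between UV-B replicates was wider relative to the mean than between no UV-B replicates, with coefficients of variation of 14.3% and 4.58%.

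TPT3, another member of the triose phosphate transporters, had values of 86.4, 82.2 and 94.8 in the UV-B libraries, against 166.6, 149.2 and 151.9 in the no UV-B libraries. The groups were apart in TPT3 as well, but by a smaller factor, with the lowest no UV-B value 1.57 times the highest UV-B value. Its mean was 87.8 ± 6.43 with UV-B and 155.9 ± 9.37 without it, and the limma log2 fold change was -0.82 ± 0.07 (SE), with an adjusted p of 6.11e-11 and a 95% interval from -0.97 to -0.67. This fall is below 2-fold, and 10.0% of all genes tested had a lower log2 fold change. With 797 to 1145 reads in the UV-B libraries and 1131 to 1826 in the no UV-B libraries, TPT3 was the most deeply counted of the 5 genes.

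TPT2 went the other way. It had values of 59.8, 55.6 and 62.0 in the UV-B libraries, against 23.9, 23.2 and 25.1 in the no UV-B libraries. All 3 UV-B libraries were above all 3 no UV-B libraries, the lowest of them 2.21 times the highest no UV-B value. The mean was 59.1 ± 3.26 with UV-B and 24.1 ± 0.958 without it, and the limma log2 fold change was 1.26 ± 0.08 (SE), with an adjusted p of 8.37e-14 and a 95% interval from 1.09 to 1.43. Of all genes tested, 3.52% had a higher log2 fold change.

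Both hexose phosphate transporter genes fell. Cre16.g688850 had values of 4.52, 2.89 and 3.73 in the UV-B libraries, against 18.5, 15.6 and 18.2 in the no UV-B libraries. It was the most thinly counted of the 5 genes, with 48, 28 and 45 reads in the UV-B libraries and 169, 118 and 219 in the no UV-B libraries. Its limma log2 fold change was -1.98 ± 0.15 (SE), with an adjusted p of 8.11e-13. Scaled to effective library sizes, the summed UV-B reads were 0.212 times the summed no UV-B reads, with an exact 95% interval from 0.172 to 0.259 that covers counting error only. On recovered reads the log2 fold change was larger, at -2.23 in edgeR.

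Cre10.g435650 had values of 11.3, 13.1 and 13.1 in the UV-B libraries, against 41.9, 38.0 and 44.7 in the no UV-B libraries. Every UV-B library was below every no UV-B library, and the lowest no UV-B value was 2.90 times the highest UV-B value. The means were 12.5 ± 1.03 with UV-B and 41.5 ± 3.38 without it, and the limma log2 fold change was -1.66 ± 0.10 (SE), with an adjusted p of 6.89e-15. Of all genes tested, 1.36% had a lower log2 fold change than Cre16.g688850 and 2.22% had a lower one than Cre10.g435650.

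**Figure D2:**
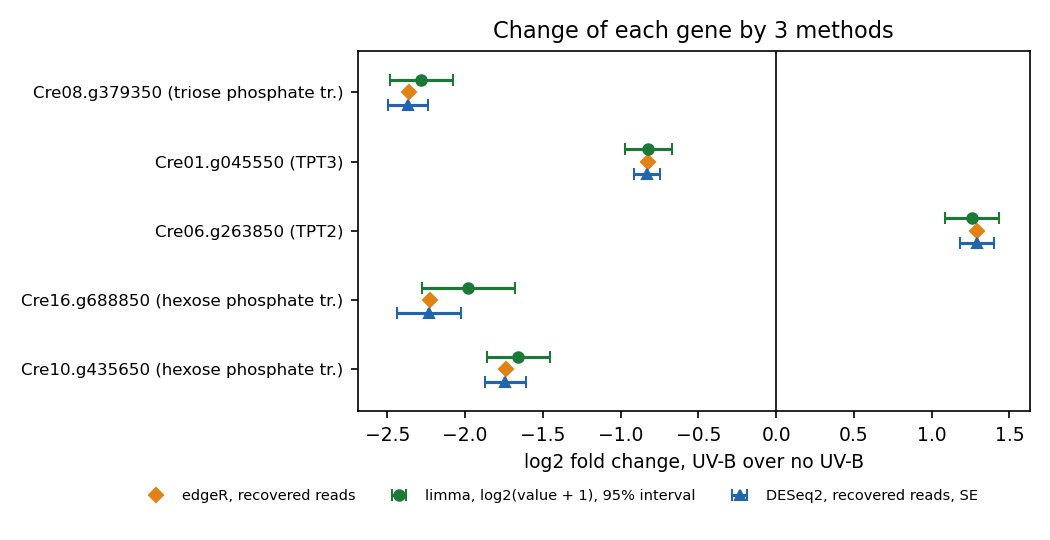
Log2 fold change of UV-B over no UV-B for each of the 5 genes, from limma on log2(value + 1) with its 95% interval, edgeR on recovered reads, and DESeq2 on recovered reads with its SE. The 3 methods give the same sign for each gene, and they differ most in Cre16.g688850, the gene with the fewest reads.

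The authors' deposited table holds 4 of the 5 genes. It gives log2 fold changes of -2.37 for Cre08.g379350, 1.29 for Cre06.g263850, -2.23 for Cre16.g688850 and -1.75 for Cre10.g435650. In edgeR on the recovered reads, the values for the same genes were -2.36, 1.29, -2.23 and -1.74, and TPT3 had -0.83. TPT3 had an edgeR adjusted p of 1.89e-11 and a change of less than 2-fold, and the authors' deposited table starts at an absolute log2 fold change of 1.00.

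**Figure D3:**
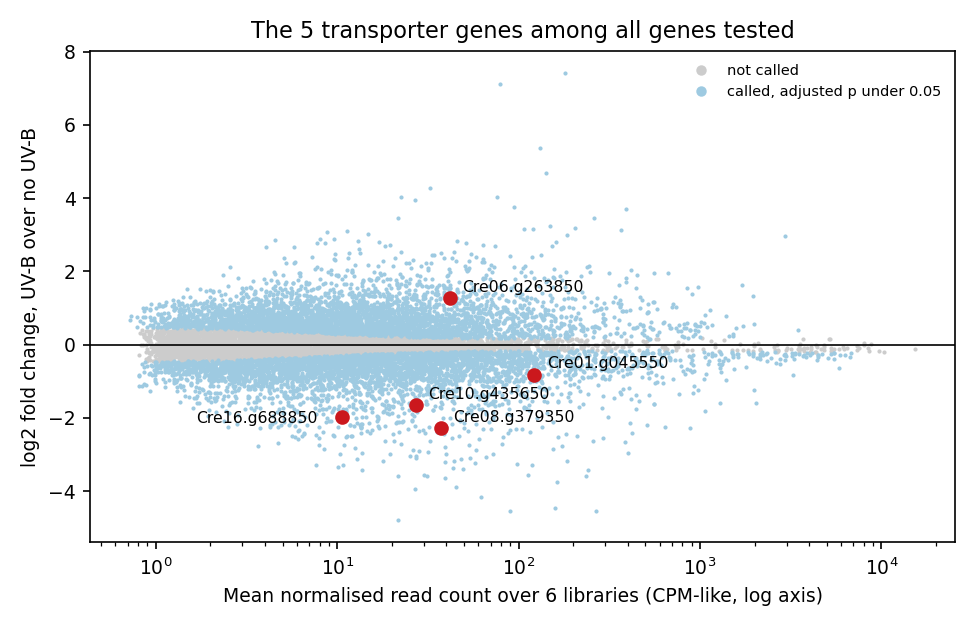
Log2 fold change of UV-B over no UV-B against the mean normalised read count over 6 libraries (log axis) for the 13415 genes tested, with the 5 transporter genes as large points. Cre08.g379350 and both hexose phosphate transporter genes lie in the lower part of the cloud, TPT3 is nearer to 0, and TPT2 is above 0.

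The triose phosphate transporter genes did not move together, and their proportions were apart in every library of the groups. TPT2 made up 38.1%, 37.1% and 36.3% of the summed value of the 3 triose phosphate transporter genes in the UV-B libraries, against 9.47%, 9.99% and 10.4% in the no UV-B libraries. The share of Cre08.g379350 was 6.68%, 7.99% and 8.15% with UV-B, against 24.5%, 25.8% and 27.0% without it. The share of TPT3 was 55.2%, 54.9% and 55.5% with UV-B, against 66.0%, 64.2% and 62.6% without it. Shares are of read counts without a length correction, so only their difference between groups is read, and a share within a library does not depend on how libraries were scaled. The differences in mean share were 27.3 percentage points for TPT2, -18.2 for Cre08.g379350 and -9.09 for TPT3. In each of the 3 shares the groups did not overlap, and the two-sided exact permutation test gave p = 0.1, the smallest that 3 against 3 libraries allow (adjusted p = 0.1 over 3 shares).

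**Figure D4:**
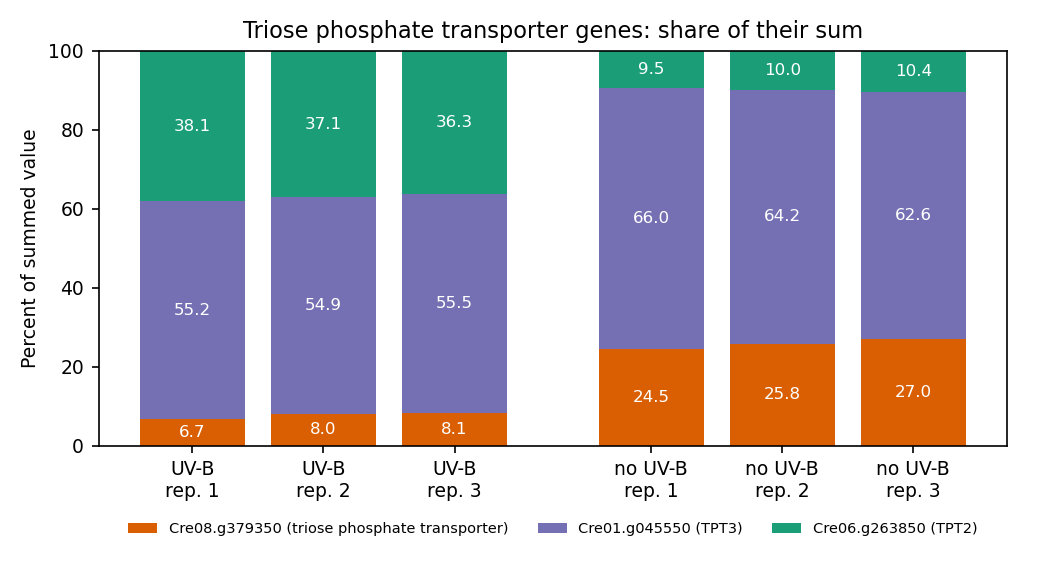
Share of each gene in the summed normalised read count of the 3 triose phosphate transporter genes, in percent, for each UV-B and each no UV-B library. The share of TPT2 is 36.3% to 38.1% in the UV-B libraries and 9.47% to 10.4% in the no UV-B libraries.

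The read ratio of TPT2 to Cre08.g379350 lay on opposite sides of equality in the groups. The log2 ratio of TPT2 to Cre08.g379350 was 2.51, 2.22 and 2.16 in the UV-B libraries, against -1.37, -1.37 and -1.38 in the no UV-B libraries, so TPT2 had more reads than Cre08.g379350 in every UV-B library and fewer in every no UV-B library, without a correction for length. The means of this ratio differed by 3.67 on the log2 scale (two-sided exact permutation p = 0.1, adjusted p = 0.1 over 5 ratios, the smallest possible). Between Cre08.g379350 and TPT3, which both fell, the log2 ratio was -2.87 ± 0.16 with UV-B and -1.32 ± 0.11 without it (SD, n = 3 each), with no overlap and the same exact permutation p of 0.1.

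The hexose phosphate transporter genes were closer to each other in their change. The log2 ratio of Cre16.g688850 to Cre10.g435650 was -1.32, -2.18 and -1.81 in the UV-B libraries, against -1.18, -1.29 and -1.30 in the no UV-B libraries. The groups did not overlap, but their nearest values were almost equal. The difference in means was -0.52, with an SD of 0.43 among the UV-B libraries and 0.07 among the no UV-B libraries (n = 3 each). The exact permutation test, p = 0.1, cannot go lower in this design.

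Summed over the genes, fewer reads came from the group with UV-B. The 3 triose phosphate transporter genes summed to 159.1 ± 10.7 with UV-B and 242.4 ± 10.0 without it (SD, n = 3 each), a ratio of the means of 0.656. In this sum the mean of TPT2 was higher by 35.0 with UV-B, set against differences of -50.3 for Cre08.g379350 and -68.1 for TPT3. The hexose phosphate transporter genes summed to 16.2 ± 0.527 with UV-B and 59.0 ± 4.86 without it, a ratio of 0.275. Both sums were without overlap between groups (two-sided exact permutation p = 0.1, adjusted p = 0.1 over 3 sums, the smallest possible).

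Other genes of sugar phosphate metabolism were found by words in the authors' deposited table, the source of gene descriptions used here. That table holds only genes that the authors called as changed more than 2-fold, so how many of these genes pass the threshold says nothing of the pathway, and their direction alone is described. Among the 1069 tested genes of the table with a description or category, 45.2% were lowered. In the list of starch words 17 of 19 genes were lowered and 2 raised. A starch phosphorylase gene (Cre12.g552200), whose enzyme releases glucose 1-phosphate from glucan chains, fell to 27.4 ± 3.49 with UV-B, against 104.0 ± 1.85 without it (SD, n = 3 each). A gene placed under ADP-glucose pyrophosphorylase, which makes the precursor of starch (Cre16.g683450), fell to 5.03 ± 1.01 with UV-B, against 36.2 ± 2.48. An alpha-glucan water dikinase gene (Cre07.g319300), whose enzyme phosphorylates starch before its breakdown, fell to 6.26 ± 0.321, against 37.6 ± 5.28. The starch synthase II gene (Cre03.g185250) fell to 404.8 ± 18.4, against 841.8 ± 4.40. The raised members were a granule bound starch synthase gene (Cre06.g257050) and a GDP-mannose pyrophosphorylase gene (Cre16.g672800), which matches by a word and is no starch gene. A 1,3-beta-D-glucan synthase gene (Cre03.g185350), lowered, likewise matches by a word.

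Words for enzymes of glycolysis and of triose, pentose and hexose phosphates matched 7 genes, of which 6 were lowered and 1 raised. Several of these enzymes act on other compounds than triose or hexose phosphates. A glyceraldehyde 3-phosphate dehydrogenase gene of the cytosolic branch of glycolysis (Cre12.g485150), whose enzyme oxidises triose phosphate, fell to 56.9 ± 9.92 with UV-B, against 310.1 ± 8.41 without it. A pyruvate kinase gene (g2906), for the last step of glycolysis, fell to 11.6 ± 0.230, against 73.8 ± 1.41. A transaldolase gene (g15197), of the pentose phosphate pathway, fell to 5.37 ± 1.97, against 39.8 ± 2.38. Another of the lowered genes, Cre10.g423550, is categorised under threonine aldolase and matches by a word. The raised gene was a phosphoglycerate mutase gene (Cre10.g460300), at 14.2 ± 0.913 with UV-B and 1.28 ± 0.560 without it.

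Among words for sugar phosphate transport and its protein domains, 4 of the 5 transporter genes and 3 others matched. No gene of the table other than Cre08.g379350 and Cre06.g263850 carried the TPT domain name. The UhpC domain name was also carried by a pair of sodium-dependent phosphate transporter genes of the major facilitator superfamily, of which Cre08.g379550 had a log2 fold change of 1.82 and Cre09.g396950 fell to 130.7 ± 11.4 with UV-B, against 274.7 ± 12.5 without it. The third match was a glucose-6-phosphate dehydrogenase gene (Cre17.g725550), the entry enzyme of the oxidative pentose phosphate pathway, which fell to 5.22 ± 0.633, against 23.5 ± 0.806.

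Among genes matched by words for the plastid envelope, maltose and malate, 2 of 5 were lowered and 3 raised. The smallest adjusted p of this list was that of Cre04.g222750, described as a chloroplast envelope protein induced by low CO2 and placed in the carbon concentrating mechanism, which rose to 17.7 ± 1.56 with UV-B, against 1.55 ± 0.382 without it. The plastidic ADP/ATP translocase gene (Cre13.g581400), for a carrier that exchanges adenylates across the envelope, fell to 3.89 ± 1.06 with UV-B, against 16.9 ± 2.31 without it. A malate dehydrogenase gene (Cre10.g423250), for an enzyme and not a carrier, matches by a word and fell to 119.2 ± 3.47, against 242.2 ± 9.11. A gene of the outer envelope protein translocon (Cre06.g252200), which imports proteins and not metabolites, rose to 27.9 ± 1.41, against 9.25 ± 2.39. The remaining raised gene, Cre04.g223300, had 2.53 ± 0.582 with UV-B and 1.24 ± 0.735 without it, and its groups overlapped. It is described as a chloroplast envelope protein but categorised under transporters at the mitochondrial membrane.

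**Figure D5:**
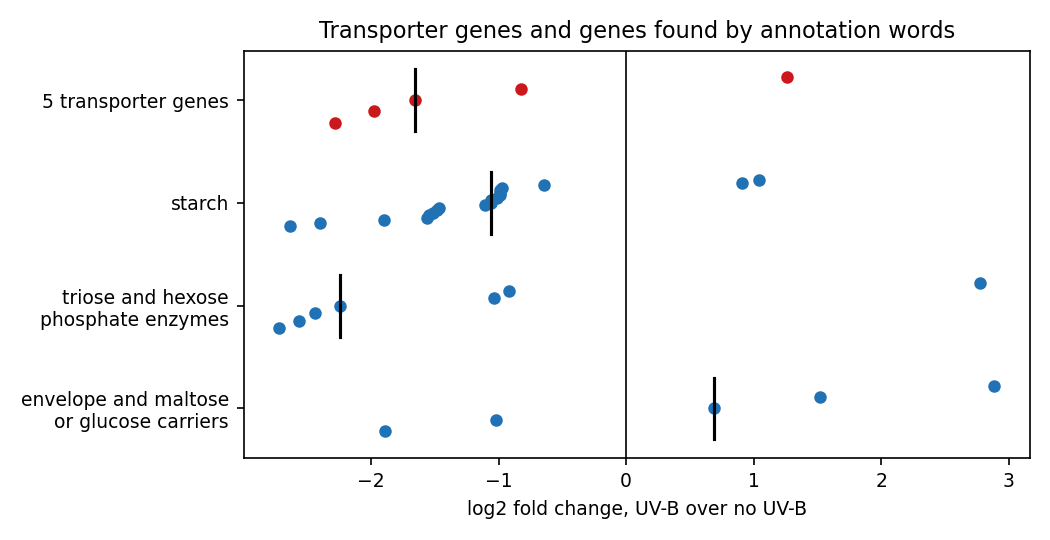
Log2 fold change of UV-B over no UV-B for the 5 transporter genes and for genes matched by annotation words, 1 point per gene, with the median of each list as a vertical bar. Other genes matched by words for sugar phosphate transport are not drawn. In the starch list 17 of 19 genes and in the list labelled triose and hexose phosphate enzymes, which also holds other enzymes of glycolysis and a match by word, 6 of 7 lie below 0; all matched genes come from a table of genes changed more than 2-fold.

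The genes with the most similar profiles were sought over the 6 libraries, as the smallest root-mean-square difference between log2(value + 1) profiles centred on each gene's own mean, among 6712 other genes with a mean value of at least 10. Such profiles are dominated by the difference between the groups, which many genes share. For Cre08.g379350 the nearest were Cre10.g456700, at a difference of 0.038, and Cre06.g283400, at 0.039, which is categorised under sucrose phosphate phosphatase, the last step of sucrose synthesis. For TPT3 they were g15110 at 0.024 and g16144 at 0.037, and for TPT2 g9635 at 0.051 and g13935 at 0.053. For Cre16.g688850 they were Cre05.g247250 at 0.093 and Cre06.g311000, described as a folate transporter, at 0.096. For Cre10.g435650 they were Cre07.g346800 at 0.051 and Cre06.g302000 at 0.058. A difference under 0.15 was reached by 565 genes for TPT3, 230 for TPT2, 92 for Cre10.g435650, 51 for Cre08.g379350 and 10 for Cre16.g688850. The limit of 0.15 was not part of the plan, and depth was not allowed for. Cre16.g688850 had only 28 to 48 reads in the UV-B libraries, so its low count does not mark a distinctive profile.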

How the data were processed

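RNA was sequenced from 6 cultures, 3 per group. Per the labels' protocols, a stranded mRNA kit was used on 400 ng of RNA per library. TopHat2, HTSeq 0.5.3p9 and edgeR 3.4.2 are named in the submitters' processing notes. The authors deposited normalised read counts for 13452 genes, a signal per gene and library that is CPM-like. They also deposited a table of log2 fold changes, log2 CPM values, p-values and false discovery rates, per the file headers.

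Columns were matched to samples by description and title, and 0 columns were left unused. Dividing each library's values by what 1 read is worth gave whole reads for 100% of values (tolerance 0.001 reads). In no UV-B replicate 3, where 0 genes have exactly 1 read, the step came from the common spacing of the values. The smallest sum of reads of a gene was 45, and genes below that are not analysed here. The exact interval on summed reads covers counting error only. The limma intervals and p-values rest on the spread between libraries, moderated by a trend over all genes tested. They therefore do not measure the spread of 1 gene over its own 6 libraries alone.

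In R 4.3.3, limma 3.58.1 (trend option) was fitted to log2(value + 1) of the 13415 genes that reached 1 in 3 or more libraries, with Benjamini-Hochberg adjustment over all of them. edgeR 4.0.16 (quasi-likelihood) and DESeq2 1.42.0 were run on the recovered reads. Single shares, ratios and sums were tested by exact permutation over libraries (SciPy 1.17.1); the ratios and sums were added after the values were seen. Only the limma and edgeR fits were tried on simulated counts, with far fewer changed genes than were called here. DESeq2, the permutation tests, the word lists and the profile search were not. Word lists were searched in descriptions and categories, and domain names were searched for TPT and UhpC only. Named genes were the 5 transporter genes, up to 4 genes per word list with the smallest adjusted p, the 2 nearest profiles and chromosome neighbours; genes that match by a word only, and raised genes of a list, were named after their values were seen. The RefSeq gene table (Chlamydomonas_reinhardtii_v5.5) matched 9922 of the identifiers (73.8%), with no gene symbols, and was used for neighbours. A planned search for relatives by protein sequence and values per coding length were not run, since no protein sequences were used here. The transporter genes and all lists were chosen with earlier results of these data known.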

Additional observations from a re-analysis of the deposited data

How the results depend on the processing

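All 5 transporter genes kept their direction and stayed past the threshold in each of 19 alternatives: pseudocounts of 0.1 and 5, a filter at 5 or none, scaling by TMM, by median-of-ratios size factors or to equal library totals, limma without a trend or with sample weights, the replicate block, each of the 6 libraries left out, edgeR and DESeq2 on recovered reads, and an adjusted p under 0.01. TMM scaling gave the main values again, and an adjusted p under 0.01 reuses the main fit. Both changes of filter, limma without a trend and the replicate block also left the fold changes of the 5 genes as in the main fit. None of these alternatives adds a separate fold change. Over the 19 alternatives the log2 fold change ran from -2.38 to -1.98 for Cre08.g379350 and from -0.88 to -0.72 for TPT3 (Cre01.g045550). It ran from 1.14 to 1.36 for TPT2 (Cre06.g263850), from -2.23 to -1.37 for Cre16.g688850 and from -1.74 to -1.41 for Cre10.g435650. The adjusted p of each gene was largest in limma without a trend, at 1.33e-06 for Cre08.g379350 and 0.00017 for TPT3. The count of genes called, 7920, ran from 6396 with a minimum value of 5, where 9568 genes were tested, to 8102 with the replicate block, and was 6514 with an adjusted p under 0.01. With equal library totals 4538 genes were raised and 3191 lowered, and the median log2 fold change of all genes was 0.09. With each library left out in turn the difference in share ran from 26.8 to 27.7 percentage points for TPT2, from -18.8 to -17.5 for Cre08.g379350 and from -9.92 to -8.22 for TPT3. The replicate numbers are shared by the groups, and the deviations of same-numbered libraries correlated weakly and positively across genes (0.045, 0.024 and 0.12). Between differently numbered libraries the correlations ran from -0.10 (UV-B replicate 3 with no UV-B replicate 1) to 0.06 (UV-B replicate 2 with no UV-B replicate 1). These values do not settle whether the numbers are pairs, and the main fit did not take them as pairs. The word lists were recomputed in the same alternatives, chosen after seeing the data. In the list of starch words, which includes matches by a word only, 14 to 17 genes were lowered. In the list of glycolysis and sugar phosphate enzymes 5 to 6 were lowered. The lowest counts, 14 and 5, came with a minimum value of 5, where fewer genes were tested. Depth limits Cre16.g688850 most, with 28 reads in its lowest library.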

Other observations

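The gene next to Cre08.g379350 in the RefSeq gene table, Cre08.g379400, which has no informative annotation, changed by a similar amount. It had values of 16.96, 17.8 and 18.1 in the UV-B libraries, against 75.9, 80.6 and 89.3 in those without UV-B. Its limma log2 fold change was -2.15 ± 0.09 (SE), with an adjusted p of 3.34e-19, beside -2.28 for the transporter gene. No source used here says whether reads of these neighbours were told apart by strand, and an exchange of reads between them was not tested. Of 10 neighbours of the 5 transporter genes, 6 were tested, with 2 lowered, 2 raised and 2 not past the threshold. Among all genes tested 29.6% were lowered and 29.5% raised, so these counts say nothing particular of the neighbours. Both hexose phosphate transporter genes fell beside a neighbour that rose: Cre16.g688800, next to Cre16.g688850, had 18.7 ± 1.06 with UV-B and 11.5 ± 0.618 without it (SD, n = 3 each), and Cre10.g435600, next to Cre10.g435650, had 12.9 ± 0.463 and 7.77 ± 1.86. The tested neighbour of TPT2, Cre06.g263900, had a log2 fold change of 0.15 ± 0.15 (limma adjusted p = 0.413), so the rise of TPT2 was not matched by a call in that gene. Of the neighbours of TPT3, Cre01.g045500 had -0.02 ± 0.12 (adjusted p = 0.872) and Cre01.g045600 fell by 0.50 on the log2 scale (adjusted p = 0.0122).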
